A study of Homo sapiens with 6 samples.

Results

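The NCoR corepressor complex is described here through 5 genes that encode its core: NCOR1, HDAC3, TBL1X, TBL1XR1 and GPS2. They were found as the rows of the deposited count table whose identifiers belong to these symbols in GENCODE release 29, 5 of the 58735 rows, and all 5 were among the 14370 genes with enough reads to be tested. They were chosen with the comparison of SETD8 and Vector cells in view, because GPS2 stood among its larger differences. The fold changes of these 5 genes are therefore a description and carry no p-value.

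RNA sequencing was done on HCT116, a widely used human cell line from a colorectal carcinoma, in 2 groups of 3 libraries. SETD8 cells overexpress SETD8, a methyltransferase that adds a single methyl group to lysine and whose gene now has the symbol KMT5A, and their genotype is given as SETD8 overexpression. Vector cells carry the empty vector, and their genotype is given as WT. Both groups were made with lentivirus and selected with puromycin as stable clones according to one label, while the design text speaks of transfection, and the number of clones in a group is not given. Both were grown in DMEM with serum and antibiotics. Nothing in the labels says that replicates were separate cultures, so a p-value here covers no more than how these samples varied, and that variation may be technical.

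NCOR1 is a large scaffold protein that unliganded nuclear receptors and other DNA-bound repressors use to hold a histone deacetylase at a gene. The scaffold activates the deacetylase HDAC3, while the WD40-repeat proteins TBL1X and TBL1XR1 bind histones and take part in exchanging the corepressor for coactivators when a ligand arrives. GPS2 joins the scaffold to the TBL1 proteins. It restrains inflammatory genes in macrophages and adipocytes, and outside the complex it restrains ubiquitin conjugation by UBE2N.

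The libraries held 17056672 to 18785454 counts in the SETD8 group and 17187722 to 20471843 in the Vector group, so that 3 counts equal 0.150 to 0.174 CPM, the count scaled to a common library size. That floor covers counting error only. KMT5A stood at 65.4, 66.2 and 75.5 CPM in SETD8 and 46.0, 47.3 and 53.9 CPM in Vector replicates 1, 2 and 3 (log2 fold change 0.49, edgeR adjusted p = 0.0156). The SETD8 libraries lay close together on the first principal component (46.4% of the variance), at -23.8 to -16.5, whereas Vector replicates 1, 2 and 3 lay at -0.94, 25.7 and 39.3. Vector replicate 1 thus stood nearer to the SETD8 libraries than Vector replicates 2 and 3 did. It also stood nearer to the SETD8 libraries than to the other libraries of its own group. Epithelial markers summed to 11577 to 13020 CPM in SETD8 and 10955 to 13553 CPM in Vector libraries, with 7 of 8 tested and villin (VIL1) under 1 CPM throughout. Fibroblast markers summed to 3.50 to 4.83 CPM in SETD8 and 4.80 to 7.20 CPM in Vector libraries, with 5 of 6 under 1 CPM throughout. Endothelial markers summed to 1.11 to 1.85 CPM in SETD8 and 1.30 to 2.54 CPM in Vector libraries, and immune markers to 0.174 to 0.477 CPM in SETD8 and 0.173 to 0.218 CPM in Vector libraries. Under 1 CPM throughout were 4 of 5 endothelial and 6 of 6 immune markers. COL1A2, DCN, KDR, PTPRC and CD3E were at 0 in every library.

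Before the values of GPS2 are given, what its row can count has to be described. GPS2 lies on chromosome 17 at 7311324 to 7315564 on the minus strand (GRCh38), between NEURL4 and EIF5A. GENCODE 29 also annotates a readthrough gene on the same strand, AC026954.2 (ENSG00000261915, chromosome 17, 7312661 to 7319174), whose exons share 1380 bases with GPS2, 44.67% of the exon bases of GPS2. EIF5A, which encodes a translation elongation factor, lies on the other strand and shares 241 bases (7.80%). Together these overlaps leave 1468 of the 3089 exon bases of GPS2 (47.5%) to GPS2 alone. Of these 1468 bases, 1440 (98.1%) lie in introns of GPS2-201, the longest coding transcript. GPS2-201 itself has 1379 bases in 11 exons and 0 of them are free of other genes. The bases of GPS2 alone are exonic only because 10 of its 16 annotated transcripts retain introns, and because other coding transcripts reach into them. GPS2-202, a coding transcript with another first exon, holds 212 such bases.

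The table itself shows how shared bases were treated. Of 710 genes whose every exon base also lies in exons on the opposite strand, 0 have a read in any library. Of 1008 genes whose every exon base lies in exons of another gene on the same strand, 32 (3.17%) have a read, with a highest sum of 116 over the 6 libraries. Of 41758 genes that share no exon base, 16496 (39.5%) have one. AC026954.2 has 0 counts in each of the 6 libraries. Reads in bases shared by 2 genes are therefore nearly absent from this table on either strand. Counted on this annotation, the row of GPS2 thus holds reads that touch the bases of GPS2 alone. Reads from fully spliced GPS2-201 messenger, or from AC026954.2 where it runs through GPS2, cannot enter the row in that case. Whether touching such a base is enough, or the whole read must lie in such bases, depends on the counting rule, which is not known. How many reads came from partly spliced RNA and how many from a coding transcript was not tested, because the table gives 1 number per gene. The test of shared bases was chosen after the values were seen, and the sources used here do not name the annotation or the counter of the authors' table.

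Introns make up most of the bases of GPS2 alone. Of the 9 introns of GPS2-201 that belong wholly to GPS2, the 3 shortest are shown. They are printed 5′ to 3′ on the minus strand from GENCODE 29 transcripts that retain them. Capitals mark the intron and lower case marks the 15 exon bases on each side, which are shared with AC026954.2. Intron 5 covers 91 bases of chr17:7313974-7314094, intron 8 covers 88 bases of chr17:7313277-7313394 and intron 9 covers 87 bases of chr17:7313110-7313226, where the coordinates include the flanks.
GPS2 intron 5: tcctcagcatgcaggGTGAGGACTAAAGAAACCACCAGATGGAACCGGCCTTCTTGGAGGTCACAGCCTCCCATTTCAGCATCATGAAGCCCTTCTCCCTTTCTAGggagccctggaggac
GPS2 intron 8: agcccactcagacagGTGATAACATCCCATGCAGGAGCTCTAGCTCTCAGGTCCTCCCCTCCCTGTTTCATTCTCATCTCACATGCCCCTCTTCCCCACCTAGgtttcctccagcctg
GPS2 intron 9: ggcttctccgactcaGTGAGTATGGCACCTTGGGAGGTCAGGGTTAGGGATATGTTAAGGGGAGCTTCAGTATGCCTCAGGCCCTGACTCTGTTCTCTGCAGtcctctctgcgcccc
Each of these introns opens with GT and closes with AG, the usual splice-site letters, and each is short. A read that runs from one of them into a flank also touches AC026954.2, and whether such reads were counted is not known. The longest block of GPS2 alone is intron 2 with 361 bases.

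The other members do not share this limit. Of the longest coding transcript, 99.8% of the bases are free of other genes for NCOR1, 94.6% for HDAC3, 100% for TBL1X and 99.1% for TBL1XR1. No run of 50 bases is common to the transcripts of any pair of the 5 members, TBL1X and TBL1XR1 included, so a read of that length from one of them matches no other member exactly. GPS2 shares 44 such runs with the processed pseudogene GPS2P1 and 0 with GPS2P2. NCOR1 shares 40 with NCOR1P2, 34 with NCOR1P1 and 0 with NCOR1P3. All 5 pseudogenes have 0 counts in every library.

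NCOR1 (ENSG00000141027, chromosome 17, 16029157 to 16218185, minus strand), the scaffold, had 20.2, 18.7 and 18.6 CPM in SETD8 replicates 1, 2 and 3, from 382, 361 and 320 reads. It had 21.0, 29.3 and 37.2 CPM in Vector replicates 1, 2 and 3, from 385, 588 and 646 reads. The 3 SETD8 libraries were nearly level and lower than every Vector library, but Vector replicate 1 stood just above them and Vector replicate 3 far above. NCOR1 averaged 19.2 ± 0.915 CPM in SETD8 and 29.2 ± 8.12 CPM in Vector cells (SD, n = 3 each). The log2 fold change, SETD8 over Vector, was -0.60 (SE 0.17), with a 95% interval of -1.08 to -0.13, which is 0.658-fold of the Vector level.

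HDAC3 (ENSG00000171720, chromosome 5, 141620876 to 141636870, minus strand), the deacetylase of the complex, had 69.9, 59.2 and 57.2 CPM in SETD8 replicates 1, 2 and 3 and 58.2, 65.3 and 61.8 CPM in Vector replicates 1, 2 and 3. SETD8 replicate 1 was the highest of all and SETD8 replicate 3 the lowest, so the groups overlapped fully. The means were 62.1 ± 6.82 CPM in SETD8 and 61.7 ± 3.55 CPM in Vector cells (SD, n = 3 each). The log2 fold change was 0.01 (SE 0.10), with a 95% interval of -0.27 to 0.29.

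TBL1X (ENSG00000101849, chromosome X, 9463295 to 9741037, plus strand), one of the WD40 exchange factors, had 43.7, 46.8 and 45.0 CPM in SETD8 replicates 1, 2 and 3 and 46.8, 49.3 and 54.9 CPM in Vector replicates 1, 2 and 3. The groups met at SETD8 replicate 2 and Vector replicate 1, which both had 46.8 CPM. The means were 45.2 ± 1.58 CPM in SETD8 and 50.3 ± 4.11 CPM in Vector cells (SD, n = 3 each), a log2 fold change of -0.15 (SE 0.10) with a 95% interval of -0.43 to 0.12.

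TBL1XR1 (ENSG00000177565, chromosome 3, 177019340 to 177228000, minus strand), its autosomal relative, had 66.4, 75.2 and 73.8 CPM in SETD8 replicates 1, 2 and 3 and 59.9, 64.7 and 72.2 CPM in Vector replicates 1, 2 and 3. SETD8 replicate 1 lay below Vector replicate 3, so the groups overlapped. The means were 71.8 ± 4.70 CPM in SETD8 and 65.6 ± 6.20 CPM in Vector cells (SD, n = 3 each), a log2 fold change of 0.13 (SE 0.10) with a 95% interval of -0.14 to 0.40. The fitted values of the WD40 pair thus had opposite signs, each with an interval that held 0.

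GPS2 (ENSG00000132522) had 10.7, 15.2 and 14.9 CPM in SETD8 replicates 1, 2 and 3, from 202, 294 and 256 reads. It had 7.52, 6.09 and 3.92 CPM in Vector replicates 1, 2 and 3, from 138, 122 and 68 reads. Every SETD8 library was higher than every Vector library, with SETD8 replicate 1 and Vector replicate 1 nearest to each other and Vector replicate 3 the lowest. GPS2 averaged 13.6 ± 2.52 CPM in SETD8 and 5.84 ± 1.81 CPM in Vector cells (SD, n = 3 each). The log2 fold change was 1.21 (SE 0.22), a 2.32-fold difference, with a 95% interval of 0.61 to 1.82 on the log2 scale. The difference is one in the counts of this row, most of whose own bases are introns such as those printed above, and whether the spliced GPS2 messenger differs between the groups was not tested.

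**Figure D1:**
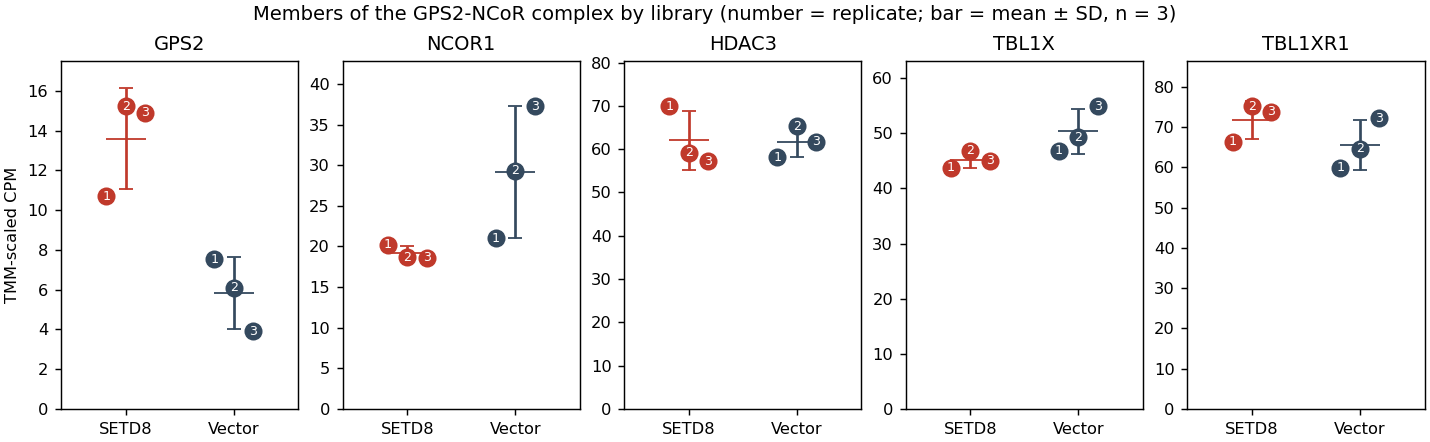
TMM-scaled CPM of each member in the 3 SETD8 and the 3 Vector libraries, with the replicate number in each point and mean ± SD (n = 3) as a bar, each panel starting at 0. The groups do not overlap for GPS2 (10.7 to 15.2 CPM in SETD8, 3.92 to 7.52 CPM in Vector) or NCOR1 (18.6 to 20.2 CPM in SETD8, 21.0 to 37.2 CPM in Vector), and they overlap for HDAC3, TBL1X and TBL1XR1.

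Among all genes tested, 443 were called higher (3.08%) and 682 lower (4.75%) in SETD8 cells, 7.83% together, by edgeR's quasi-likelihood test at an adjusted p under 0.05. With library totals in place of TMM the split was 792 higher and 505 lower. Of the 5 members, 2 passed that threshold, GPS2 as higher and NCOR1 as lower. The groups did not overlap for 2 of the 5 members and for 30.3% of all genes tested. Because the members were picked from this comparison, nothing is read from these counts. The fold change of GPS2 was exceeded by 54 of the 14370 genes, 23 of which were called higher. That of NCOR1 was undercut by 782 genes, 278 of which were called lower. The 5th to 95th percentile of all genes ran from -0.63 to 0.57, so that of the 5 members GPS2 lay outside that range, NCOR1 lay just inside its lower edge, and HDAC3, TBL1X and TBL1XR1 lay well within it. In bulk RNA, fewer cells with a transcript and less of it per cell cannot be told apart.

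The spread within groups was uneven as well. The SD of log2 CPM of NCOR1 was 0.07 among SETD8 and 0.41 among Vector libraries, and that of GPS2 was 0.28 among SETD8 and 0.47 among Vector libraries. Both lay above the median of all genes in the Vector group (0.12 in SETD8, 0.18 in Vector), and 64.9% of all genes had the larger SD in the Vector group. TBL1X (0.05 in SETD8, 0.12 in Vector) and TBL1XR1 (0.10 in SETD8, 0.14 in Vector) varied less, and HDAC3 had the larger SD among SETD8 libraries (0.15 in SETD8, 0.08 in Vector). Within the Vector group, GPS2 was lowest and NCOR1 highest in replicate 3, the library farthest out on the first principal component. The part of that library in both differences is given by leaving it out: the log2 fold change of GPS2 was then 1.00 and that of NCOR1 -0.39. Without Vector replicate 1, the library nearest to the SETD8 group, they were 1.43 and -0.80.

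**Figure D2:**
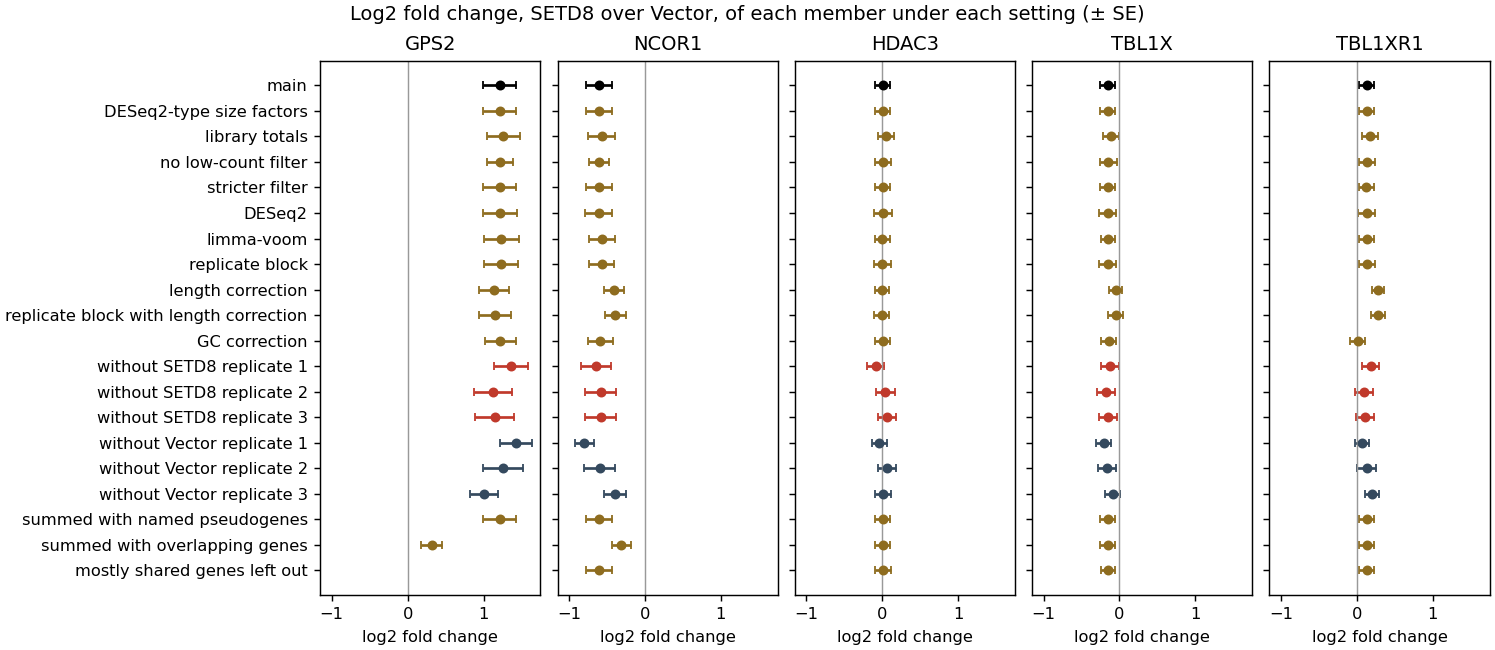
Log2 fold change of each member, SETD8 over Vector, with its SE, under the analysis as reported (top) and each alternative setting (rows), one panel per member. GPS2 stays above 0 and NCOR1 below 0 under every setting shown, GPS2 comes to 0.32 when its reads are summed with those of the overlapping genes, and HDAC3 lies between -0.084 and 0.065 when single libraries are left out.

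The genes that overlap the members were measured too. EIF5A, with 1254, 1172 and 1293 CPM in SETD8 and 1207, 1019 and 774 CPM in Vector replicates 1, 2 and 3, is far more abundant than GPS2, whose annotated 3′ end it overlaps. Its log2 fold change was 0.31 (SE 0.13) and did not pass (edgeR adjusted p = 0.164), although it passed without Vector replicate 1 (edgeR adjusted p = 0.00632) and with no filter on low counts (0.0160). PIGL, an enzyme of glycosylphosphatidylinositol anchor synthesis, shares 321 bases (2.08%) with the start of NCOR1 on the other strand. It had 10.6, 9.52 and 11.9 CPM in SETD8 and 8.94, 8.48 and 6.63 CPM in Vector libraries. Its log2 fold change of 0.41 did not pass (edgeR adjusted p = 0.134), except without Vector replicate 1 (0.0497). The antisense transcript AC002553.1 within NCOR1 reached at most 0.466 CPM, AC008781.1 at HDAC3 had 1 read in 1 library, and TBL1XR1-AS1 had 0 reads. With the counts of overlapping genes added to each member, the log2 fold change was 0.32 for GPS2, mostly EIF5A reads, and -0.31 for NCOR1. The rows of these genes likewise leave out nearly all reads in the bases they share with a member.

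Levels can be compared between members only per length. In CPM per kilobase of all annotated exons, HDAC3 was highest, with 13.4 ± 1.47 in SETD8 and 13.3 ± 0.767 in Vector cells (SD, n = 3 each, here and below). TBL1XR1 had 6.19 ± 0.405 in SETD8 and 5.65 ± 0.534 in Vector cells, and TBL1X had 4.97 ± 0.174 in SETD8 and 5.54 ± 0.452 in Vector cells. GPS2 had 4.40 ± 0.816 in SETD8 and 1.89 ± 0.587 in Vector cells, and NCOR1 had 1.24 ± 0.0594 in SETD8 and 1.89 ± 0.527 in Vector cells. HDAC3 stood above TBL1XR1 in 6 of 6 libraries, with ranges that did not overlap. TBL1XR1 stood above TBL1X and TBL1X above GPS2 in 6 of 6 libraries each, though over all libraries their ranges overlapped. GPS2 stood above NCOR1 in 5 of 6 libraries, and Vector replicate 3 had the opposite order. The order depends on the length used and, for GPS2, on which bases can take reads. Only 1468 of its 3089 exon bases are free of other genes. If shared bases take no reads, its level per kilobase of all exons is too low. Per kilobase of the bases free of other genes, GPS2 (9.27 ± 1.72 in SETD8, 3.98 ± 1.24 in Vector cells) ranked 2. It stood above TBL1XR1 in the 3 SETD8 libraries and below it in the 3 Vector libraries. Of these free bases of GPS2, 98.1% lie in introns of its longest coding transcript. Its rank on either scale is therefore not a comparison of spliced messengers. Averaged over all 6 libraries, the scaffold NCOR1 was the lowest of the 5 on both of these scales, but per kilobase of all exons the Vector means of GPS2 and NCOR1 were both 1.89.

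By Pearson correlation of log2 CPM over the 6 libraries, the 8 genes most like GPS2 among 10564 genes with a mean of at least 5 CPM were STAG3L2 (r = 0.999), ZNRF1 (0.998), RPL36AL (0.998), CHMP1B (0.995), LINC00662 (0.994), SRPRA (0.992), SNHG7 (0.989) and LINC01806 (0.987). All 8 were fitted higher in SETD8 cells, with log2 fold changes from 0.17 for SRPRA to 0.79 for LINC01806, each smaller than that of GPS2. Part of such a likeness is the group difference itself, and the genes were picked for their r over these same libraries. Over deviations from the group means, r ran from 0.944 for LINC01806 to 0.995 for STAG3L2 among the 8. STAG3L2 had 6.04, 7.25 and 6.98 CPM in SETD8 and 4.91, 4.54 and 3.63 CPM in Vector replicates 1, 2 and 3, which is the same order of libraries within the Vector group as GPS2. None of the other members was among the genes most like GPS2. Their r with GPS2 was -0.94 for NCOR1, -0.84 for TBL1X, -0.25 for HDAC3 and 0.36 for TBL1XR1, and 97.3% of the 10564 genes had a higher r than NCOR1. Over deviations from the group means it was -0.89 for NCOR1, -0.61 for TBL1X and -0.58 for HDAC3. For TBL1XR1 it was -0.40, so its sign changed. NCOR1 and TBL1X had an r of 0.92 with each other. The r of log2 CPM describe 6 libraries that share 2 group means, and those of deviations rest on the same 6 libraries.

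The wider pathway was read from lists of genes, set beside a median log2 fold change of 0.000472 over all genes tested and the 7.83% of them that were called. That share is for adjusted p. The share of all genes with an unadjusted p under 0.05 was not worked out, so nothing is read from list counts at that threshold, here or below. Of 10 further subunits and partners of the complex, 9 were tested and 0 passed by edgeR, while 3 had an unadjusted p under 0.05, all of them lower. DESeq2 called 1, limma-voom 0. Their median log2 fold change was -0.21, and 7 of 9 were fitted below 0. SPEN, a large repressor that recruits the complex, had 125, 133 and 119 CPM in SETD8 and 139, 155 and 206 CPM in Vector replicates 1, 2 and 3. The fitted log2 difference was -0.41, with an SE of 0.12 (edgeR adjusted p = 0.0595). With the correction for gene length it was -0.23 (edgeR adjusted p = 0.120). As for NCOR1, the SETD8 libraries of SPEN were close together and the Vector libraries spread upward, with replicate 3 highest. Without Vector replicate 1, 0 higher and 3 lower genes of the list passed. Over the whole table, 1771 genes were then higher and 1738 lower among 14715 tested. Without SETD8 replicate 1, 2 and 3 and Vector replicate 2 in turn, the whole table had 1, 45, 45 and 25 higher genes. The lower genes numbered 10, 110, 84 and 47 in the same order. DESeq2 called 739 higher and 907 lower among 14370, and limma-voom 469 and 621. List counts under these settings, here and below, follow calls that shift over the whole table.

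Of 22 nuclear receptors and other repressors that recruit the complex, 20 were tested, 2 were higher and 2 lower, and the median was 0.12. NR1D2, the clock repressor REV-ERB beta, was higher (0.41, SE 0.10, edgeR adjusted p = 0.0238), with 80.2, 84.8 and 79.6 CPM in SETD8 and 59.9, 55.7 and 68.2 CPM in Vector replicates 1, 2 and 3. RXRB, the retinoid X receptor that pairs with many of the others, was higher as well (0.49, SE 0.12, edgeR adjusted p = 0.0312). PPARD, a fatty acid receptor, was lower (-0.34, SE 0.08, edgeR adjusted p = 0.0287), and so was the retinoic acid receptor RARG (-0.40, SE 0.11, edgeR adjusted p = 0.0457). The groups did not overlap for 5 of the 20 genes tested, beside 30.3% of all genes, and these 4 were among the 5. Without Vector replicate 1 the list had 5 higher and 3 lower genes, and without SETD8 replicate 1, 2 or 3 or Vector replicate 2 it had 0 of either.

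Of 15 partners of GPS2 outside the complex, 13 were tested, 1 was higher and 0 lower by edgeR, with a median of 0.01. That gene was UBE2V2, a cofactor of the ubiquitin-conjugating enzyme UBE2N, which had 54.5, 46.0 and 45.7 CPM in SETD8 and 40.1, 33.5 and 37.0 CPM in Vector replicates 1, 2 and 3 (0.40, SE 0.11, edgeR adjusted p = 0.0426). Unadjusted p-values under 0.05 were found for 2 higher and 1 lower gene of this list, and both DESeq2 and limma-voom called 1 higher and 0 lower. Of 32 genes of other deacetylase corepressors (SIN3, CoREST, NuRD, CtBP and TLE), 31 were tested, 1 was higher and 0 lower, with a median of -0.07. SAP30, a subunit of the SIN3 complex, had 7.79, 7.66 and 8.90 CPM in SETD8 and 5.18, 5.04 and 3.86 CPM in Vector replicates 1, 2 and 3 (0.79, SE 0.18, edgeR adjusted p = 0.0238). In that list 5 higher and 5 lower genes had an unadjusted p under 0.05, DESeq2 called 2 higher and 0 lower, and limma-voom called 1 higher and 0 lower. This list had 3 higher and 5 lower genes without Vector replicate 1. Neither list had a call without SETD8 replicate 1, 2 or 3 or Vector replicate 2.

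The complex is known to hold down targets of unliganded nuclear receptors and inflammatory genes. Of 28 targets of nuclear receptors, 23 were tested, 0 were higher and 1 was lower by edgeR (4.35%, beside 7.83% of all genes), with a median of -0.02. At an unadjusted p under 0.05 there were 4 higher and 6 lower genes, DESeq2 called 2 higher and 3 lower, and limma-voom called 2 higher and 1 lower. The gene called was TGM2, transglutaminase 2, a target of retinoic acid receptors, with 166, 177 and 169 CPM in SETD8 and 277, 303 and 339 CPM in Vector replicates 1, 2 and 3 (-0.84, SE 0.09, edgeR adjusted p = 0.00262). TGM2 alone among the list genes named here kept its call under all 17 alternatives, its highest adjusted p being 0.0401. The list had 3 higher and 5 lower genes without Vector replicate 1. Of 15 inflammatory genes that GPS2 or NCoR restrain in macrophages and adipocytes, only 5 had enough reads to be tested, so the list says little in this epithelial line. The 1 that passed was TNFAIP3, a feedback inhibitor of NF-kappaB signalling, which was lower, with 9.48, 8.44 and 9.71 CPM in SETD8 and 11.8, 20.6 and 19.6 CPM in Vector replicates 1, 2 and 3 (-0.92, SE 0.19, edgeR adjusted p = 0.0161). No other gene of that list had an unadjusted p under 0.05, 0 were called higher by edgeR, and DESeq2 and limma-voom each called 0 higher and 1 lower. TNFAIP3 was not called without SETD8 replicate 1, 2 or 3 or Vector replicate 2 (highest edgeR adjusted p 0.108).

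**Figure D3:**
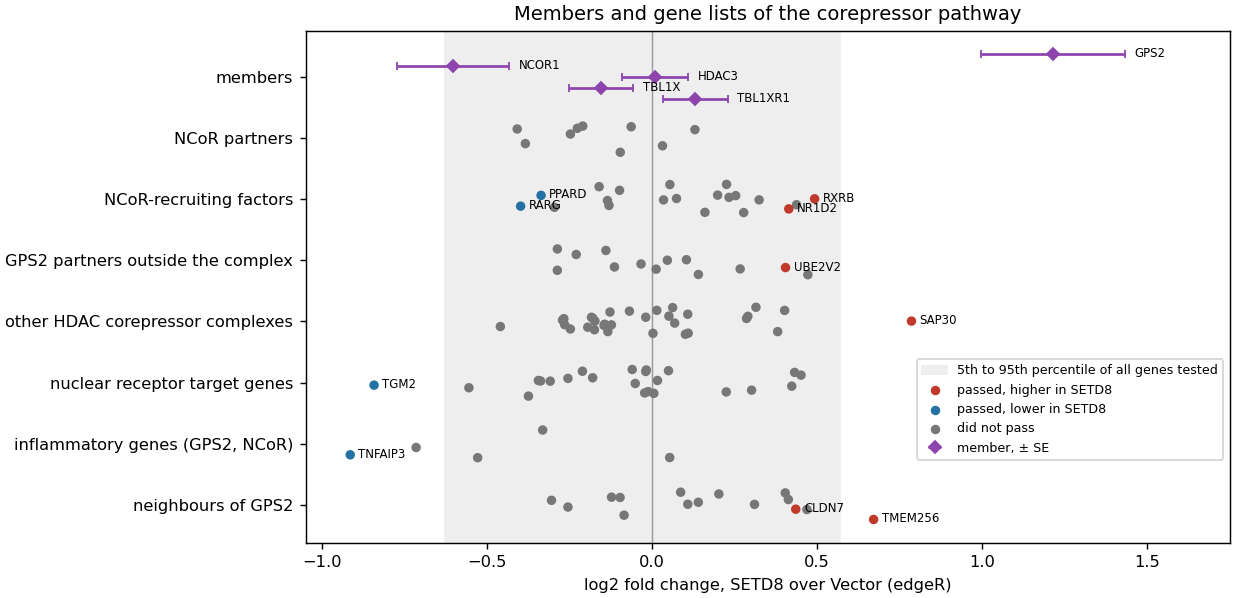
Log2 fold change, SETD8 over Vector, of the 5 members (diamonds with SE) and of the tested genes of each list (points), with the 5th to 95th percentile of all genes tested shaded (-0.63 to 0.57). Named points passed the edgeR test; they lie on both sides of 0 among the factors that recruit the complex, and 0 points pass among the NCoR partners.

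The 100 kb on either side of GPS2 hold 29 other annotated genes, of which 15 were tested, 2 were higher and 0 lower, with a median of 0.14. TMEM256 had 13.1, 17.6 and 13.3 CPM in SETD8 and 11.2, 8.78 and 7.66 CPM in Vector replicates 1, 2 and 3 (0.67, SE 0.17, edgeR adjusted p = 0.0341). CLDN7, a tight-junction claudin and one of the epithelial markers, had 302, 314 and 278 CPM in SETD8 and 267, 211 and 183 CPM in Vector replicates 1, 2 and 3 (0.43, SE 0.12, edgeR adjusted p = 0.0444). Both have the library order of GPS2 within the Vector group, with replicate 1 highest and replicate 3 lowest. Some neighbours that did not pass, such as EIF5A, have this order too, and others do not. It is also the order of the Vector libraries along the first principal component. Among the neighbours, 4 higher and 1 lower gene had an unadjusted p under 0.05, DESeq2 called 2 higher and 1 lower, and limma-voom called 2 higher and 0 lower. Without Vector replicate 1 there were 5 higher and 1 lower, and without SETD8 replicate 1, 2 or 3 or Vector replicate 2 there were 0 of either. No neighbour had a fold change as large as that of GPS2. Of the longest coding transcript, 0 bases are free of other genes for GPS2. The free share is 25.3% for GABARAP, 56.6% for TMEM256 and 84.1% for CLDN7, so rows of this region differ in what they can count.

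**Figure D4:**
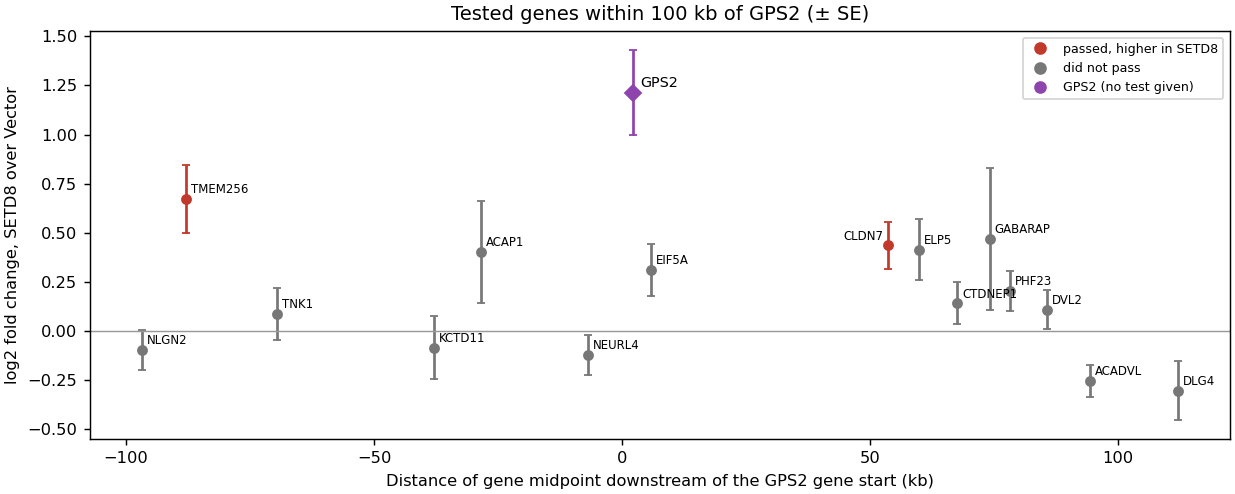
Log2 fold change, SETD8 over Vector, with SE, of the 15 tested genes around GPS2 by the distance of the gene's midpoint from the GPS2 gene start in kilobases, downstream on the GPS2 strand to the right. GPS2 (diamond, 1.21) stands above all of them, TMEM256 (0.67) and CLDN7 (0.43) passed the edgeR test as higher, and genes on either side lie on both sides of 0.

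Calls over the whole table depended on which library was left out, and those of the named genes with them. Of 14 genes named here outside the members that passed (10 genes of the lists, KMT5A and 3 of those most like GPS2), 13 lost the call when SETD8 replicate 1, 2 or 3 or Vector replicate 2 was left out, each time all but TGM2. The highest edgeR adjusted p among the 14 was then 0.204, 0.155, 0.165 and 0.201. Without Vector replicate 1 or without Vector replicate 3, 0 of the 14 were lost (highest edgeR adjusted p 0.0215 and 0.0453). Their log2 fold changes moved less over the 6 libraries left out in turn, for example 0.36 to 0.50 for NR1D2, -0.39 to -0.30 for PPARD and 0.67 to 0.85 for SAP30. The calls of GPS2 and NCOR1 were also absent without SETD8 replicate 1, 2 or 3 and without Vector replicate 2, and that of NCOR1 also without Vector replicate 3, with library totals, with limma-voom and with a correction for gene length, where its log2 fold change was -0.41. TBL1XR1 passed with the length correction and with no other alternative run, at a log2 fold change of 0.28 (SE 0.08). Over all genes, the calls numbered between 1 higher and 10 lower without SETD8 replicate 1 and 1771 higher and 1738 lower without Vector replicate 1.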

How the data were processed

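Gene-level read counts, whole numbers without normalization, were deposited for 58735 Ensembl identifiers in 6 libraries. Per the labels' protocols, RNA taken up in TRIzol was poly(A)-selected and prepared with a strand-marking Illumina TruSeq kit. Per the submitters' processing notes, HISAT2, STAR, featureCounts and HTSeq were used with GRCh38 or hg38, but neither their roles nor their versions are listed. For the counts the authors deposited, the aligner, counter, annotation and use of strand are not stated. Every identifier (58735) was found in GENCODE release 29 on GRCh38, and 58207 had a current symbol. Vector is the only group besides SETD8, so columns headed NC were assigned to it, with their number as the replicate. The number of columns from other samples was 0.

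filterByExpr (minimum count 10, by group) kept 14370 genes and removed 44365. Libraries were TMM-scaled and compared with the robust quasi-likelihood test of edgeR 4.0.16, run in R 4.3.3 beside limma 3.58.1. The test was two-sided and had no covariate. P-values were adjusted by Benjamini-Hochberg across the genes tested, and 0.05 was the threshold. The common coefficient of variation between libraries was 0.116. CPM is TMM-scaled, and log CPM has a prior count of 2. The chi-square per degree of freedom was 5.81 to 8.12 for pairs of SETD8 libraries and 12.9 to 30.8 for pairs of Vector libraries, so no pair agreed within sampling noise. With the SETD8 libraries it was 10.8 to 12.3 for Vector replicate 1 and 26.1 to 48.7 for Vector replicates 2 and 3. Vector replicate 1 had 12.9 with Vector replicate 2 and 30.8 with Vector replicate 3. SEs come from the F statistic of each gene, and 95% intervals use 4 residual degrees of freedom.

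A base was called free of other genes where no exon of another gene of GENCODE 29 covers it on either strand. Sequences were read from the GENCODE 29 transcripts. The members and the lists were chosen with earlier results of these data known. Genes named are the 5 members, the genes that overlap them and the pseudogenes named after them, KMT5A, of each list up to 6 that passed or, where none passed, the 2 with the smallest adjusted p, up to 4 neighbours within 100 kb that passed, and the 8 genes most like GPS2 with a mean of at least 5 CPM. A gene that this rule selects is not reported here.

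The alternatives exchanged TMM for DESeq2-type size factors or library totals, dropped the filter or required 1 CPM in the 3 libraries of a group, and used DESeq2 1.42.0 or limma-voom as the test. They also added the replicate number as a block, corrected for gene length or GC content with lowess offsets (span 0.3), used other gene lengths, summed rows, narrowed the window to 50 kb or left out each library. A last one, chosen with the data in view, removed genes with under 50% of their longest coding transcript free of other genes. In 3 simulations of the SETD8 over Vector comparison, with 14370 genes of which 200 were changed, edgeR called 48.3% of genes with a 1.5-fold change, 81.7% of those with a 2-fold change and 95.8% of those with a 4-fold change. Of its calls, 5.82% were genes left unchanged. The simulations gave a gene the same dispersion in both groups and drew each gene independently. The real Vector libraries varied more and spread along the first principal component, so these shares need not hold for the data. Plots were made in matplotlib 3.10.9.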

Additional observations from a re-analysis of the deposited data

How the results depend on the processing

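HDAC3, fitted near 0, changed sign: it came to -0.0049 with the length correction, -0.0083 with the replicate block added to it, and below 0 without SETD8 replicate 1 (-0.084) or Vector replicate 1 (-0.037). The other members and the named genes kept their sign under every alternative run. The GPS2 log2 fold change came to 0.32 when its counts were summed with those of the overlapping genes, a sum in which EIF5A holds most reads. TBL1X came to -0.049 with a length correction and -0.048 with a replicate block added to it, and TBL1XR1 to 0.28 under both and to 0.013 with a GC correction. Leaving out single libraries gave 1.00 to 1.43 for GPS2, -0.80 to -0.39 for NCOR1, -0.084 to 0.065 for HDAC3, -0.21 to -0.087 for TBL1X and 0.067 to 0.21 for TBL1XR1. The number of members called was 1 with library totals, 1 with limma-voom, 1 with the block and length correction together and 1 where mostly shared genes were left out, which removes GPS2. It was 2 with the length correction, GPS2 and TBL1XR1 as higher, NCOR1 having lost its call, and 0 to 2 over single libraries left out. Library totals gave 792 genes higher over the whole table, DESeq2 739, and no low-count filter 949 higher and 1051 lower. Over single libraries left out, 1 to 1771 genes were higher and 10 to 1738 lower. Calls among the NCoR partners numbered 1 with no filter, 1 with DESeq2 and 0 to 3 over libraries left out, and among the recruiting factors 0 to 8. Partners of GPS2 gave 2 with the length correction, 2 with the block and length correction, 0 with the GC correction and 0 to 1 over libraries left out. Other deacetylase complexes gave 2 with library totals, no filter, DESeq2 or the replicate block, 3 with the length correction, 0 with the block and length correction and 0 to 8 over libraries left out. Receptor targets gave 2 with DESeq2-type size factors or the stricter filter, 3 with library totals, limma-voom, the replicate block or the length correction, 4 with the GC correction, 5 with no filter or DESeq2 and 1 to 8 over libraries left out. Inflammatory genes gave 0 to 2, and the neighbours of GPS2 gave 4 with no filter, 1 with the block and length correction, 1 within 50 kb and 0 to 6. Levels per kilobase, averaged over the 6 libraries, moved with the length used: with the longest coding transcript, the median coding transcript and, where they moved, the bases free of other genes, GPS2 had 7.05, 9.03 and 6.62, HDAC3 31.6, 46.6 and 14.7, NCOR1 2.26 and 12.9, TBL1X 6.76 and 10.2, and TBL1XR1 8.64 and 118.4. Over libraries left out they were 2.79 to 3.52 for GPS2, 1.40 to 1.64 for NCOR1, 13.0 to 13.6 for HDAC3, 5.10 to 5.34 for TBL1X and 5.81 to 6.07 for TBL1XR1. The cause of these shifts was not tested. The deviations of same-numbered SETD8 and Vector libraries from their group means had r of 0.0247, 0.00778 and -0.0637, so no pairing by number was seen. Deviations within a group sum to 0, so these r cannot show whether same-numbered samples were prepared together. With the replicate block GPS2 came to 1.23 and NCOR1 to -0.57, and 532 genes were higher and 645 lower. With 68 to 294 reads in the row of GPS2, the relative counting error is larger than for the other members, which had 320 reads or more.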

Other observations

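Rows that share most of their longest coding transcript with other genes were compared with the rest, a split made after the values were seen. Among coding genes with under 50% of that transcript free of other genes, 381 were tested, 11 were higher and 2 lower in SETD8 cells (3.41%). Among those with 50% or more, 12059 were tested, 381 were higher and 658 lower (8.62%). With 0 free bases, 6 genes were tested, and GPS2 was the only 1 called. Under 10%, 41 were tested, and GPS2 was again the only 1 called (2.44%). GPS2, which falls in each class under 50%, was itself picked from this comparison, so nothing is read from its call there. No difference between these shares was tested.

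Other rows of the gene lists and of the neighbours of GPS2 have a similar limit and are named here for their overlap, after their values were seen. CHD4, the NuRD remodeller, has 12.4% of its longest coding transcript free of other genes, UBE2V1 18.5%, GABARAP 25.3%, LPCAT3 33.6%, KDM4A 43.9% and CTBP2 47.8%. CHD4 had 15.9, 18.2 and 17.5 CPM in SETD8 and 19.0, 18.9 and 20.6 CPM in Vector replicates 1, 2 and 3, and UBE2V1 had 1.11, 2.12 and 1.40 CPM in SETD8 and 0.872, 2.00 and 1.61 CPM in Vector replicates. GABARAP, an autophagy protein encoded near GPS2, had 5.51, 2.74 and 3.96 CPM in SETD8 and 3.49, 3.99 and 1.27 CPM in Vector replicates. None of the 6 passed by edgeR, and, on this annotation, most of the longest coding transcript of each is shared, as for GPS2.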
